A study of Mus musculus with 12 samples.

Results

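The 10 genes described here encode the suppressors of cytokine signalling Socs1 to Socs6, their founding relative Cish, and the PIM serine/threonine kinases Pim1, Pim2 and Pim3. The genes were chosen with earlier results of these data known, and their probes were taken by name. Every probe other than a control whose gene name in the scanner files was one of these 10 was taken. That gave 19 probes for 10 genes, out of 56605 probes and 37008 genes on the array. Socs3, Cish, Socs1, Socs5 and the PIM genes have 1 probe each, Socs4 has 3, Socs2 has 4 and Socs6 has 5. Of the 19 probes, 17 were well above background on at least 3 arrays and were tested, and every gene had a tested probe. Where a gene had several, the brightest on average stood for it.

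The RNA came from haematopoietic stem cells of the bone marrow of male mice, sorted as LSK SLAM cells (lineage negative, Sca-1 and Kit positive, gated on SLAM family receptors) after enrichment for Kit. There were 4 groups of 3 mice, with 1 single-colour array per mouse. The controls were sham-operated. A second group received POL5551, a peptide-mimetic antagonist of the chemokine receptor CXCR4, by continuous infusion of 100 mg/kg per day, and was taken 14 days after the infusion began. The remaining groups received granulocyte colony-stimulating factor (G-CSF) at 100 ug/kg per injection every 12 h, as 4 doses over 2 days or 9 doses over 5 days. Both agents are known as mobilizers of stem cells. The labels do not say whether the G-CSF mice were operated, and strain and age (not given in the sources used here) cannot be stated. All groups passed the same sort. Of 14 stem cell markers listed for the check of the cell type, 11, among them Kit, Procr, Mecom and Hlf, were well above background on all 12 arrays. Slamf1, Tek and Hoxb5 were so on 11 arrays. On all 12 arrays 8 of 8 erythroid, 8 of 9 T and NK cell and 9 of 10 stromal markers were also well above background. Detection alone therefore does not tell cell types apart here.

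As background, the G-CSF receptor has no kinase of its own: ligand binding activates Janus kinases, which phosphorylate the receptor and the transcription factors STAT3 and STAT5. STATs bind a short palindrome in the genes they switch on, and Socs3, Cish and Pim1 are among the best known of these targets in blood cells. SOCS proteins close a negative feedback loop, holding the activated receptor through an SH2 domain and a SOCS box that recruits a ubiquitin ligase, and SOCS3 is the main brake on the G-CSF receptor. PIM kinases act the other way, promoting survival, translation and cell cycle entry, and are controlled mostly through their amount because they are active as made.

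The letters of the STAT palindrome can be seen in the starts of the genes themselves. In RefSeq's promoter table for GRCm38.p6, entries for 7 of the 10 genes were searched, with 8 start sites. Each entry covers 250 bases before and 50 bases after the start. Socs2 and Socs5 had no entry, and Socs6 was left out of the search. TTCNNNGAA, which reads the same on both strands, was searched in each window. It occurred in 8.298% of all 32851 windows and in 2 of the 8 windows of these genes, those of Socs3 and Cish. In Socs3 the match TTCTTAGAA begins at base -154 from the start. In Cish there are 2 matches, TTCCTGGAA and TTCTTGGAA, beginning at bases 1 and 12 of the annotated transcript. The 250 bases before the start of Socs3, the 1 member called different from sham (below), and 30 bases around the start of Cish are printed with the matches in capitals.
Socs3 (chr11:117969367-117969616, minus strand): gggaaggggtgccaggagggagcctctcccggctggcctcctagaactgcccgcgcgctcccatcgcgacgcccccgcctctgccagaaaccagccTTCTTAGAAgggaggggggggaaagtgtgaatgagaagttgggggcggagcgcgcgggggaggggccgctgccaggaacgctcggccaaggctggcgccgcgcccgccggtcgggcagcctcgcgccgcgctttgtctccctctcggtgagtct
Cish (chr9:107296654-107296683, plus strand): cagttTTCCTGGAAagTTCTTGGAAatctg
The windows of Socs1, Socs4, Pim1, Pim2 and Pim3 hold no such match, which says only that these letters are not in them. The form with 4 bases between TTC and GAA was found in 6.953% of all windows and in none of the 8. Pim1 and Pim2, whose levels followed each other over the arrays, are shown with another motif in capitals, the GC box GGGCGG or its reverse complement, which lies in 35.658% of all windows and in 7 of the 8 windows of these genes, Socs1, Socs3, Socs4, Cish and Pim3 included.
Pim1 (chr17:29490535-29490784, plus strand): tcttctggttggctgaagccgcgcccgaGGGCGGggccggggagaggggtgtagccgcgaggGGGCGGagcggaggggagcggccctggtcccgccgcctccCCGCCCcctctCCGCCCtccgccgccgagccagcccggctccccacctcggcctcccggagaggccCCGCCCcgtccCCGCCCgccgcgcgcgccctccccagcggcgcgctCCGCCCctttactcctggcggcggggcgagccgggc
Pim2 (chrX:7878056-7878305, plus strand): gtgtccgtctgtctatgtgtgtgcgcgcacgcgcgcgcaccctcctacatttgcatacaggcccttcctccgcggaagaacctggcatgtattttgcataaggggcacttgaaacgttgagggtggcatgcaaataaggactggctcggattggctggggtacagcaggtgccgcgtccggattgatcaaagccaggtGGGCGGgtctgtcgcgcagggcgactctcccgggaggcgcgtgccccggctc
Pim1 has 7 GC boxes in the 250 bases before this start and Pim2 has 1, at base -52. The matches are descriptions of the sequence and show no binding.

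Levels are given on 1 scale throughout: the log2 of the processed signal minus the log2 of that array's 75th percentile, so that 0 is a probe as bright as the 75th percentile and 1 unit is a doubling. They compare arrays for the same probe, not probes with each other. The 75th percentile ran from 1638 on sham mouse 1 to 5579 on mouse 1 of the 5-day group, and the share of probes detected well above background was 75.3% to 85.6%. Sham mouse 1 stood apart: its rank correlation with the other sham arrays was 0.788 and 0.783, against 0.936 between those, and the median level of 1540 probes for olfactory, taste and other genes foreign to blood was -1.60 on it, against -3.30 and -3.45. Results are therefore also given without it. The slides carried sham and POL5551 arrays together on 2 of 6 slides and POL5551 with 5-day arrays on 1, whereas the 3 arrays of the 2-day group filled a slide of their own, so slide and group cannot be told apart there. The 5-day arrays lay on slides 4, 5 and 6, and sham arrays on slides 1 and 2. Neither G-CSF group can therefore be set against sham within a slide.

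Socs3 was the 1 member called different from sham at an adjusted p under 0.05. Its level in the 3 sham mice was -1.0, 0.23 and 0.07, and the mean was -0.23 ± 0.67 (SD, n = 3). In the POL5551 mice it was 1.53, 2.06 and 1.22, with a mean of 1.60 ± 0.42 (SD, n = 3). After 2 days of G-CSF it was 2.88, 3.39 and 3.18, a mean of 3.15 ± 0.26 (SD, n = 3), and after 5 days 3.29, 3.34 and 2.79, a mean of 3.14 ± 0.30 (SD, n = 3). Every treated mouse was above every sham mouse, every G-CSF mouse was above every POL5551 mouse, and the 2 durations of G-CSF overlapped. Before scaling, the processed signal of the probe, which lies at chr11:117827480-117827539 in mm9, ran from 821 to 3321 in sham mice, 7653 to 13448 under POL5551, and 13893 to 54628 under G-CSF.

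**Figure D1:**
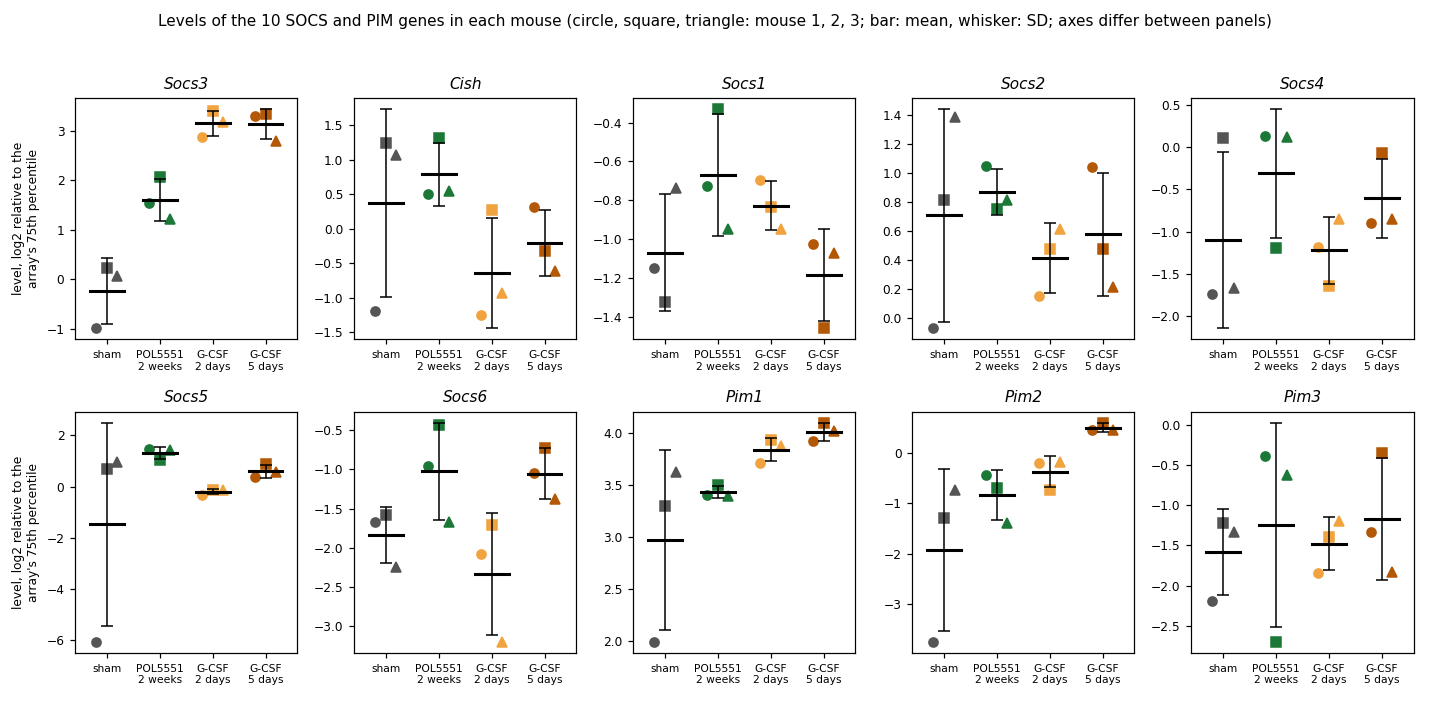
Level of each of the 10 genes in each mouse (y axis, log2 relative to the array's 75th percentile; the axis differs between panels) for the 4 groups (x axis); symbols mark mouse 1, 2 and 3, the bar is the group mean and the whisker 1 SD. Socs3 steps up from sham through POL5551 to both G-CSF groups, and sham mouse 1 lies far below the other mice for Socs5 (-6.07) and Pim2 (-3.74).

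Against sham, Socs3 rose after 2 days of G-CSF by 3.38 on the log2 scale (SE 0.387, 95% interval 2.53 to 4.23), a 10.4-fold difference, with an adjusted p of 0.0162 in limma. After 5 days it rose by 3.37 (95% interval 2.52 to 4.22; adjusted p = 0.00942 in limma). Under POL5551 it rose by 1.84 (95% interval 0.99 to 2.69), or 3.57-fold, with an adjusted p of 0.0428 in limma. In each of these 3 comparisons Socs3 was the only member called at an adjusted p under 0.05, where the share of all tested genes called was 0.0331% for 2 days of G-CSF, 0.0663% for 5 days and 2.28% for POL5551. The moderated F test over the 4 groups placed Socs3 at rank 25 of 33191 genes (adjusted p = 0.00783), again as the only member called, with 1.35% of all genes called. By direction, the share of all genes called was 0.0301% higher and 0.00301% lower for 2 days of G-CSF, 0.0482% higher and 0.0181% lower for 5 days, and 0.178% higher and 2.11% lower for POL5551. As these are bulk samples, a change in the makeup of the sorted cells and a change in RNA per cell cannot be told apart.

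The groups were then ordered by their Socs3 level. The 5-day and 2-day groups differed by -0.01 (95% interval -0.86 to 0.84; adjusted p = 0.988 in limma). POL5551 was 1.55 lower than 2 days of G-CSF (difference -1.55, 95% interval -2.40 to -0.70; adjusted p = 0.0204 in limma), in a comparison where 30.6% of all genes were called, 5.87% higher and 24.7% lower. Against 5 days of G-CSF the difference was of the same size, -1.54 (95% interval -2.39 to -0.68), but the adjusted p was 0.262 in limma, where 0.0603% of all genes were called. Within slide 1, the POL5551 array exceeded sham mouse 1, the only sham array there and the mouse that stood apart, by 2.53. On slide 2 the POL5551 array exceeded the mean of sham mice 2 and 3 by 1.91. On slide 5 it lay 2.11 below the 5-day array (difference -2.11).

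Without sham mouse 1 the Socs3 differences from sham were 3.00 after 2 days (adjusted p = 0.0111), 2.99 after 5 days (adjusted p = 0.0241) and 1.45 under POL5551 (adjusted p = 0.105, all in limma), so the POL5551 call was lost. It was also lost, with differences of 1.61 to 1.87, without POL5551 mouse 1 (adjusted p = 0.144) or 2 (0.0907), any 1 of the 2-day mice (0.0639 to 0.069), or 5-day mouse 1 (0.055) or 2 (0.0587). Other processing ended it too, with differences close to or above the one reported: 1.78 under quantile normalization (adjusted p = 0.0892), 2.24 under median scaling (0.0502), 1.84 in the authors' table (0.0893) and 1.84 with mouse number as a replicate block (0.0602 in limma). It was 1.55 with normexp and quantile normalization (adjusted p = 0.0679 in limma). With the median of the foreign probes as a covariate the POL5551 difference was 0.79 (adjusted p = 0.943 in limma), while both G-CSF differences remained called, at 3.51 and 2.85. That median was -5.17, -4.50 and -4.10 on the POL5551 arrays, below every other array. In comparisons with POL5551 the covariate and the treatment therefore cannot be told apart. Leaving out any 1 of the 2-day mice gave adjusted p between 0.084 and 0.118 for 2 days of G-CSF, and leaving out 5-day mouse 1 or 2 gave 0.0739 and 0.0616 for 5 days, with Socs3 differences of 3.26 to 3.52. For POL5551 against 2 days the call was lost without POL5551 mouse 1 or 3 or any 1 of the 2-day mice (differences of -1.68 to -1.36, adjusted p of 0.051 to 0.0738 in limma). It was also lost under median scaling (-1.10, adjusted p = 0.0791) and with the foreign-probe covariate (-2.71, adjusted p = 0.451 in limma).

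**Figure D2:**
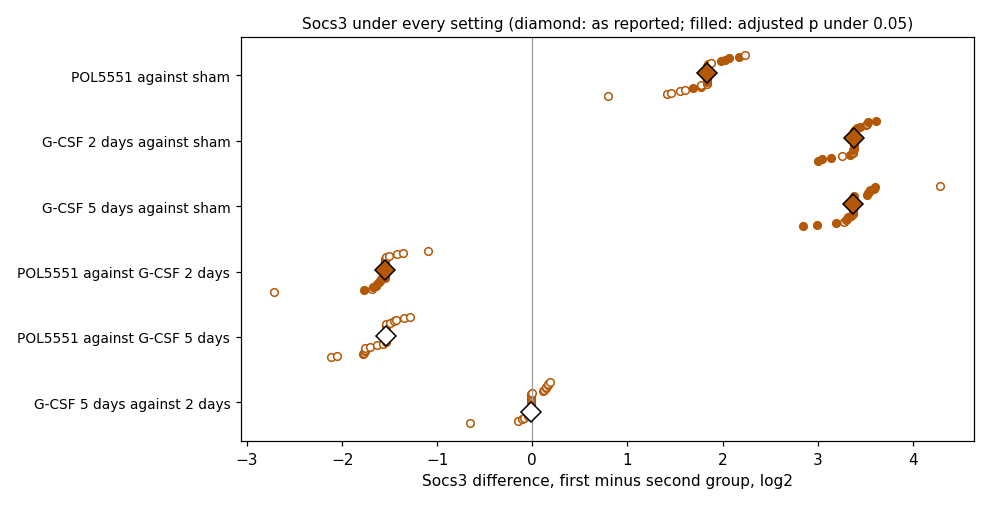
Socs3 difference between each pair of groups (x axis, log2, first minus second group) under every processing setting, 1 point per setting; the diamond is the value reported and filled points have an adjusted p under 0.05. The G-CSF differences from sham lie between 2.85 and 4.29 and the POL5551 differences between 0.79 and 2.24, all above 0.

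Markers of other cell types were read beside Socs3. The mean level over the 10 stromal markers (Cxcl12, Lepr, Pdgfra, Pdgfrb, Col1a1, Col1a2, Adipoq, Kitl, Sp7 and Bglap) ran from -1.05 to -0.49 in sham mice, 0.31 to 1.22 under POL5551, -0.62 to 1.14 after 2 days of G-CSF and -0.01 to 1.29 after 5 days. In limma 1 was called higher under POL5551, Pdgfrb, and none in either G-CSF comparison with sham. The median difference of the 10 from sham was 2.34 under POL5551, 0.82 after 2 days and 1.66 after 5 days, and 6, 9 and 8 of them were above 0. Of the 10, 9 were well above background on all 12 arrays. The mean level over 12 mature neutrophil markers ran from -2.83 to -1.28 in sham mice and -2.24 to -0.83 under POL5551. It ran from -2.40 to -1.24 after 2 days and -2.22 to -1.05 after 5 days. None of the 12 was called against sham. Their median difference from sham was 0.58, 0.25 and 0.47 for POL5551, 2 days and 5 days, with 8, 9 and 8 of them above 0. No marker of primary granules, macrophages, erythroid, T and NK or B cells was called against sham. For POL5551, 2 days and 5 days, the median differences were -0.39, 0.53 and -0.25 for primary granules and -0.04, 0.10 and 0.02 for macrophages. They were -0.45, 0.17 and -0.37 for erythroid, -0.82, 0.26 and -0.19 for T and NK, and -0.35, 0.31 and -0.08 for B cells. Over all genes they were -0.52, 0.10 and -0.13. The part of any of these cell types in the Socs3 result was not tested.

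Cish, like Socs3 a STAT target with an SH2 domain and a SOCS box, did not share its pattern. Its level was -1.19, 1.25 and 1.08 in sham mice, 0.50, 1.32 and 0.55 under POL5551, -1.26, 0.27 and -0.94 after 2 days of G-CSF, and 0.32, -0.32 and -0.62 after 5 days. Sham mouse 1 was level with the lowest 2-day mouse, while the other sham mice were above all 6 G-CSF mice. The difference from sham was -1.02 after 2 days (95% interval -2.42 to 0.38; adjusted p = 0.686), -0.58 after 5 days (adjusted p = 0.718) and 0.41 under POL5551 (adjusted p = 0.621), none of them called in limma. Without sham mouse 1 the Cish difference was -1.81 after 2 days (adjusted p = 0.0928) and -1.37 after 5 days (adjusted p = 0.51 in limma). Between treatments, Cish was 1.43 higher under POL5551 than after 2 days of G-CSF with no overlap (adjusted p = 0.0966, and 0.0216 without sham mouse 1, in limma). In that comparison 21.9% of all genes were higher without overlap, and 52.6% of all genes were called without sham mouse 1.

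Socs1, which inhibits JAK kinases directly and restrains interferon signalling, varied little. It was -1.15, -1.32 and -0.74 in sham mice, -0.73, -0.33 and -0.95 under POL5551, -0.69, -0.83 and -0.95 after 2 days of G-CSF, and -1.02, -1.46 and -1.07 after 5 days. The 5-day mice lay below both other treated groups without overlap, by 0.36 and 0.52 (differences of -0.36 from 2 days and, for POL5551 minus 5 days, 0.52; adjusted p = 0.511 and 0.462 in limma). Its differences from sham, between -0.11 and 0.40, did not pass, with 95% intervals that reached no further than -0.77 and 1.05.

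Socs2, best known as the brake on growth hormone signalling, is read by 2 probes of its RefSeq transcript that were well above background on all 12 arrays. The brighter was read at -0.07, 0.81 and 1.38 in sham mice, 1.05, 0.75 and 0.81 under POL5551, 0.15, 0.48 and 0.61 after 2 days of G-CSF, and 1.04, 0.48 and 0.21 after 5 days. It differed from sham by 0.16 under POL5551, -0.29 after 2 days and -0.13 after 5 days, and the second probe by 0.16, -0.34 and -0.05, none called in limma. The correlation between them over the 12 arrays was 0.613. The other 2 probes, designed on transcripts outside RefSeq, were well above background on 3 and 2 arrays.

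**Figure D3:**
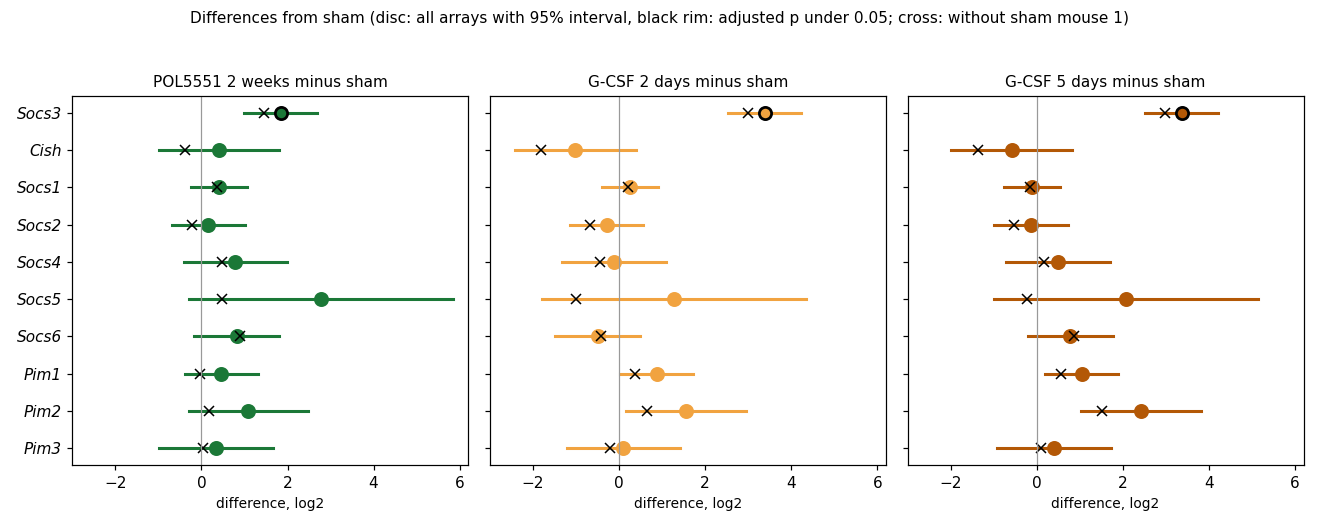
Difference of each treatment from sham for the 10 genes (x axis, log2): discs are the values over all 12 arrays with their 95% intervals, a black rim marks an adjusted p under 0.05, and crosses are the values without sham mouse 1. Socs3 is the 1 gene with a black rim in all 3 panels, and the crosses lie far to the left of the discs for Socs5.

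Socs4, Socs5 and Socs6 have long amino-terminal regions, and Socs4 and Socs5 are linked mainly to the epidermal growth factor receptor. Socs4 ranged over mice of the same group as widely as between groups, from -1.74 to 0.11 in sham mice and from -1.19 to 0.14 under POL5551, and its differences from sham were 0.79, -0.12 and 0.49 for POL5551, 2 days and 5 days, none called in limma. Its remaining probes were well above background on 8 and 5 arrays.

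Socs5 depends on sham mouse 1. It was -6.07 there, not well above background, against 0.68 and 0.95 in the other sham mice, and read 1.46, 1.03 and 1.42 under POL5551, -0.32, -0.13 and -0.15 after 2 days of G-CSF, and 0.38, 0.86 and 0.55 after 5 days. With all arrays the difference from sham was 2.78 under POL5551, 1.28 after 2 days and 2.08 after 5 days, with an SE of 1.40 and none called in limma. Without sham mouse 1 these became 0.49, -1.01 and -0.22 (adjusted p = 0.339, 0.0913 and 0.889 in limma), so that both G-CSF differences changed sign. The treated groups were separate from each other: POL5551 was above 5 days and 5 days above 2 days without overlap. POL5551 minus 2 days was 1.50, with an adjusted p of 0.382 over all arrays and 0.00392 without sham mouse 1 in limma, where 52.6% of all genes were called.

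Socs6, which targets receptor tyrosine kinases such as Kit, was read at -1.68, -1.58 and -2.24 in sham mice, -0.95, -0.44 and -1.67 under POL5551, -2.09, -1.72 and -3.21 after 2 days of G-CSF, and -1.05, -0.73 and -1.38 after 5 days. It was higher under POL5551 than after 2 days by 1.32 (95% interval 0.33 to 2.30; adjusted p = 0.0466 in limma). With Socs3, called lower, it was 1 of 2 members called in that comparison, against 30.6% of all genes. Its 5 probes did not read alike. For 2 days of G-CSF minus sham the probe that stands for the gene gave -0.50, a second probe of the same RefSeq transcript 1.12, and a probe of another transcript -1.42, although all 3 were well above background on all 12 arrays. The mean over the tested probes put POL5551 0.61 above 2 days (adjusted p = 0.206 in limma), and the last 2 probes were well above background on 4 and 0 arrays. The Socs6 call was also lost without sham mouse 2 (adjusted p = 0.0514), POL5551 mouse 1 or 2 (0.123 and 0.131), 2-day mouse 1 or 3 (0.0982 and 0.157) or any 1 of the 5-day mice (0.0529 to 0.0612 in limma).

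**Figure D4:**
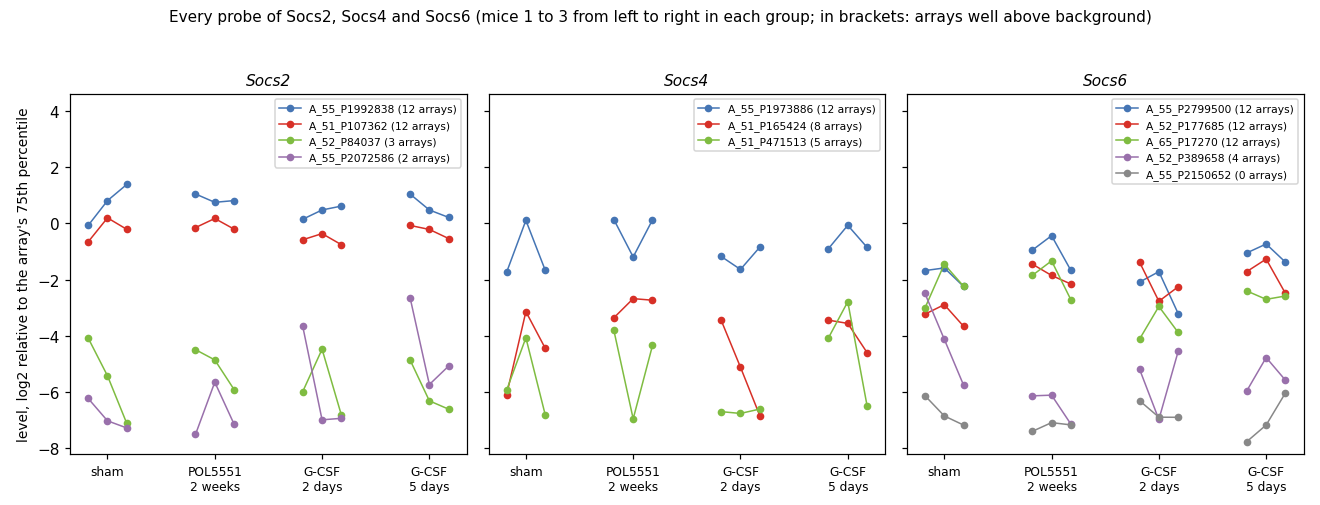
Level of every probe of Socs2, Socs4 and Socs6 (y axis, log2 relative to the array's 75th percentile) in each mouse of the 4 groups (x axis; lines only join the mice of a group), with the number of arrays on which a probe was well above background in brackets. The 3 bright Socs6 probes go different ways from sham to 2 days of G-CSF (-0.50, 1.12 and -1.42), whereas both bright Socs2 probes are higher in every POL5551 mouse than in every 2-day mouse.

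Pim1 encodes the founding PIM kinase, and its level was tight within every treated group. It read 1.99, 3.30 and 3.63 in sham mice, 3.41, 3.50 and 3.39 under POL5551, 3.72, 3.93 and 3.87 after 2 days of G-CSF, and 3.92, 4.10 and 4.03 after 5 days. Both G-CSF groups were above all sham and all POL5551 mice. The difference from sham was 0.87 after 2 days (95% interval 0.02 to 1.72; adjusted p = 0.539), 1.04 after 5 days (95% interval 0.19 to 1.89; adjusted p = 0.385) and 0.46 under POL5551 (adjusted p = 0.36), none called in limma. Without sham mouse 1 the Pim1 differences were 0.38, 0.55 and -0.03, still uncalled.

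Pim2, which supports survival and protein synthesis in blood cells, read -3.74, -1.30 and -0.74 in sham mice, the first not well above background. It was -0.43, -0.69 and -1.38 under POL5551, -0.21, -0.73 and -0.18 after 2 days of G-CSF, and 0.45, 0.60 and 0.44 after 5 days. The 5-day mice were above all other mice, and the 2-day mice above all sham mice. Against sham Pim2 was 2.42 higher after 5 days (95% interval 1.03 to 3.81; unadjusted p = 0.0027, adjusted p = 0.287 in limma) and 1.55 higher after 2 days (adjusted p = 0.501 in limma). Without sham mouse 1 these were 1.51 (adjusted p = 0.24) and 0.65 (adjusted p = 0.261 in limma). The F test over the 4 groups gave Pim2 an adjusted p of 0.0964, and 0.0321 without sham mouse 1, where 23.1% of all genes were called in limma.

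Pim3 showed no order. It ranged from -2.19 to -1.22 in sham mice, from -2.70 to -0.39 under POL5551, from -1.84 to -1.20 after 2 days of G-CSF and from -1.83 to -0.35 after 5 days. Its differences from sham were 0.34, 0.10 and 0.41 for POL5551, 2 days and 5 days, with 95% intervals as wide as -1.22 to 1.42 for 2 days, and none was called in limma.

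Over the 10 genes, those whose groups did not overlap with sham were Socs3 and Socs5 under POL5551 (2 higher, where 10.6% of all genes were higher without overlap), Socs3, Pim1 and Pim2 after 2 days of G-CSF (3 higher, 6.63% of all genes), and these 3 with Socs6 after 5 days (4 higher, 4.41% of all genes). None lay below sham without overlap in any of the 3, where 25.9%, 5.35% and 8.16% of all genes did. The median difference of the 10 was 0.62 under POL5551, beside -0.52 over all genes, 0.17 after 2 days, beside 0.10, and 0.64 after 5 days, beside -0.13. These medians were 0.27, -0.31 and 0.14 without sham mouse 1, so that the 2-day median changed sign, and with the foreign-probe covariate the POL5551 median was -0.69. All 10 were above 0 under POL5551, but 7 were without sham mouse 1, when Cish, Socs2 and Pim1 read below 0, and 4 with the covariate. The covariate cannot be told apart from POL5551 treatment. The 3 comparisons share their sham arrays. Between the 2 durations of G-CSF, none of the 10 and 0% of all genes passed in limma, although 5370 genes had an unadjusted p under 0.05 and a fit with array weights called 12383. In that comparison 3 members, Socs5, Socs6 and Pim2, were higher after 5 days without overlap and 1, Socs1, lower, against 11.8% and 23.4% of all genes. POL5551 was apart from 5 days of G-CSF for 3 members upward (Cish, Socs1, Socs5; 10.3% of all genes) and 3 downward (Socs3, Pim1, Pim2; 15.3%). Against 2 days it was apart for 4 upward (Cish, Socs2, Socs5, Socs6; 21.9%) and 2 downward (Socs3, Pim1; 43.6%).

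Weighting the arrays, which gave sham mouse 1 a weight of 0.114, kept Socs3 called in both G-CSF comparisons with sham, where 3.43% (2 days) and 0.253% (5 days) of all genes were called. Under POL5551 Socs3 was 1.42 (adjusted p = 0.0501 in limma), with 1.21% of all genes called. With these weights Socs3 was also called lower under POL5551 than after 5 days (0.756% of all genes), Pim2 and Socs6 higher after 5 than after 2 days (37.3%), and Cish, Socs3, Socs5 and Socs6 different between POL5551 and 2 days (60.4%). The F test then called Cish, Pim2 and Socs3, beside 30.4% of all genes. Without sham mouse 1 the shares of all genes called were 0.214%, 0.5% and 0.0572% for POL5551, 2 days and 5 days against sham, 0.0422% for 5 against 2 days and 0.274% for POL5551 against 5 days.

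Among the members, the closest pair over the 12 arrays was Pim1 and Pim2, with a Pearson correlation of 0.951, or 0.831 without sham mouse 1. Pim1 was also the gene most like Pim2 among the 14952 genes compared, which have a symbol and were detected on every array. Socs3 followed Pim1 at 0.841 and Pim2 at 0.822 (0.806 and 0.715 without sham mouse 1), and ran against Cish at -0.232 (-0.695 without sham mouse 1). These correlations describe the arrays, which share groups, slides and brightness. The 5 genes most like Socs3 were Tgfbi (0.959), Gadd45g (0.952), Ffar2 (0.941), Meg3 (0.935) and Dlk1 (0.932), all of which kept a correlation of at least 0.903 without sham mouse 1. Tgfbi encodes a matrix protein induced by TGF-beta, Gadd45g a growth arrest protein, Ffar2 a receptor for short-chain fatty acids, and Dlk1 and Meg3 lie in 1 imprinted cluster. Tgfbi read -0.64, -0.21 and 0.03 in sham mice against 0.76 to 2.16 under POL5551 and 1.61 to 2.51 under G-CSF. The nearest genes of the others were Cyp39a1 for Socs1 (0.860), Rhbdf1 for Socs2 (0.925), Fahd2a for Socs4 (0.930), Acap1 for Socs5 (0.991), Cltc for Socs6 (0.933), Traf3 for Cish (0.956), Rps6ka3 for Pim1 (0.938) and Hjurp for Pim3 (0.945). Without sham mouse 1 these correlations were, in the same order, 0.888, 0.908, 0.916, 0.888, 0.937, 0.963, 0.828 and 0.937. Acap1 read 0.07 on sham mouse 1 and 3.05 to 3.99 on the other arrays.

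**Figure D5:**
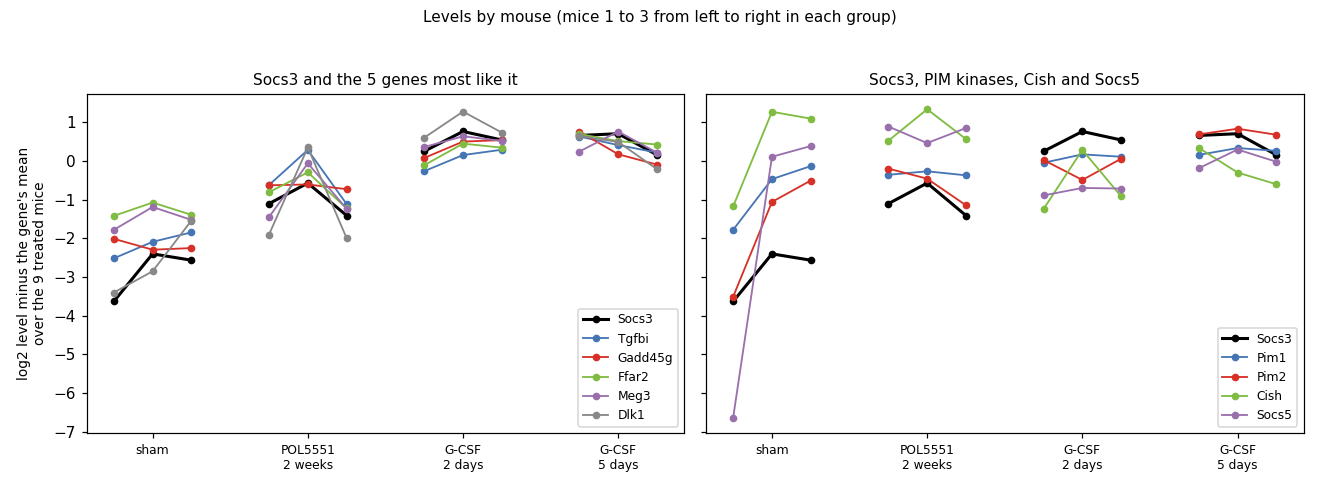
Log2 level of each gene minus its own mean over the 9 treated mice (y axis) in every mouse of the 4 groups (x axis; lines only join the mice of a group), for Socs3 with the 5 genes most like it (left) and with Pim1, Pim2, Cish and Socs5 (right). The 6 genes on the left share a low level in sham mice and a high one under G-CSF, and on the right Cish is lower in the G-CSF mice, where Socs3 is high, than in the POL5551 mice.

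The rest of the pathway was taken from 7 lists. Of 19 genes for the receptor, kinases, STATs and adaptors of G-CSF signalling, 18 were tested, and none was called against sham in any of the 3 comparisons. Their median difference was 0.60, -0.06 and 0.18 for POL5551, 2 days and 5 days of G-CSF. Between POL5551 and 2 days of G-CSF, 2 were called higher, Pik3r1 (2.40; adjusted p = 0.0128) and Stat5b (1.27; adjusted p = 0.0489), and 2 lower, Tyk2 (-2.09; adjusted p = 0.0135) and Jak3 (-1.18; adjusted p = 0.038 in limma), beside the 30.6% of all genes. Pik3r1 is a regulatory subunit of PI3 kinase, and Tyk2 and Jak3 are Janus kinases.

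Other brakes on cytokine receptors, 18 genes, were likewise never called against sham, with median differences of 0.73, -0.07 and 0.32 for POL5551, 2 days and 5 days. Against 2 days of G-CSF, POL5551 was called higher for 3, among them the phosphatase Dusp6 (2.47; adjusted p = 0.0128) and the STAT inhibitor Pias1 (1.14; adjusted p = 0.0332), and lower for 1, Spry2 (-2.11; adjusted p = 0.0138 in limma), beside 5.87% of all genes higher and 24.7% lower. The 8 partners of the SOCS box in the ubiquitin ligase all read above sham under POL5551 and after 5 days, and all below it after 2 days, with medians of 0.65, 0.35 and -0.08 and none called. Of all 33191 genes, 11919, 14106 and 18904 were above sham in these comparisons, and the list's mean over the sham arrays, 0.53 to 1.51, spanned that of the 2-day arrays, 0.57 to 1.04. Cul5, the scaffold of that ligase, was 1.46 higher under POL5551 than after 2 days (adjusted p = 0.0155 in limma).

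Of 25 other STAT3 and STAT5 targets, 23 were tested. This list, Gadd45g included, was chosen with earlier results of these data known. Its counts describe the listed genes and do not test STAT targets as a class. Gadd45g was the 1 gene of the list called higher in all 3 comparisons with sham, by 1.53 under POL5551 (adjusted p = 0.0377), 2.56 after 2 days of G-CSF (adjusted p = 0.0177) and 2.47 after 5 days (adjusted p = 0.0118 in limma). It read -0.93, -1.21 and -1.17 in sham mice, 0.45, 0.47 and 0.35 under POL5551, 1.16, 1.58 and 1.62 after 2 days, and 1.84, 1.25 and 0.99 after 5 days. That is the order seen for Socs3, with all G-CSF mice above all POL5551 mice and these above all sham mice. Hp, which encodes the haemoglobin-binding protein haptoglobin, rose under POL5551 by 3.73 (adjusted p = 0.0493 in limma), from -1.24 to -1.09 in sham mice to 1.30 to 3.32. After 5 days of G-CSF Hp read 2.89, 0.36 and 2.40, also above all sham mice, and after 2 days -0.85, -1.32 and 1.73. It was called in neither G-CSF comparison with sham. Against sham the list had 2 genes called higher under POL5551, 1 after 2 days and 1 after 5 days, and none lower. The shares of all genes called higher there were 0.178%, 0.0301% and 0.0482%. The list's median difference was 0.70, 0.53 and 0.47 for POL5551, 2 days and 5 days. In POL5551 against 2 days 3 genes were called higher and 3 lower, beside 5.87% and 24.7% of all genes. Among them were Ccnd1 at 2.73, Hp at 2.69, where the groups overlapped, and Onecut2 at -1.33.

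Of 16 substrates and partners of PIM kinases, none was called against sham, with median differences of 0.66, -0.05 and 0.26. Between POL5551 and 2 days of G-CSF, 1 was called higher and 1 lower, beside 5.87% and 24.7% of all genes. Foxo1, a factor that keeps stem cells quiescent, was 0.99 higher under POL5551 (adjusted p = 0.0461), and the mitotic phosphatase Cdc25c was called lower, at -1.25 (adjusted p = 0.0212 in limma). Early response genes, which also follow cell handling, had none of 17 called in any of the 6 comparisons, and their medians against sham were -0.10, -0.27 and 0.39. The 2 with the smallest p were Atf3, at -1.73 under POL5551 (adjusted p = 0.0775), and Dusp1, at -1.28 after 2 days (adjusted p = 0.447 in limma). Genes induced by type I interferon, 15 in all, had median differences from sham of 0.17, -0.44 and -0.21 with none called. Rsad2 was 0.82 higher under POL5551 than after 2 days (adjusted p = 0.0338 in limma), the 1 of the list called there, beside 5.87% of all genes called higher.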

How the data were processed

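Single-colour Agilent arrays of 12 mice were analysed. Per the file headers, the authors scanned them with Agilent Feature Extraction 11.5.1.1, and the deposited scanner files give each spot's processed red (Cy5) signal as an intensity on a linear scale, background-subtracted and not normalized between arrays. The authors' deposited table holds an intensity for 49665 probes with a median of 1080 on every array; its tool is not given in the sources used here. In it, 5 of the 12 columns, in the POL5551 and 5-day groups, hold the values of another mouse of the same group, so mouse numbers here are those of the scanner files.

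Outlier spots were left out, no spot was saturated, and log2 intensity was centred on each array's 75th percentile over probes other than controls. A probe was tested if well above background on at least 3 of 12 arrays. Group means of 33191 genes were fitted over the 12 arrays by limma 3.58.1 (R 4.3.3), two-sided, with Benjamini-Hochberg adjustment across every gene and a threshold of 0.05; an exact test of 3 mice against 3 cannot reach that threshold. The script was tested on simulated data. The named genes were all members, the most correlated genes, and up to 2 called genes per list, direction and comparison, or the 2 with the smallest p. Listed genes that were not tested include Id1, Il1r1, Mrc1, Hbb-b1 and Cd3g. Members and lists were chosen with earlier results of these data known.

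Alternatives were quantile normalization with or without normexp (offset 50), other scalings, filters and probe rules, the authors' table, slide and mouse number as blocks, array weights, the foreign-probe median as a covariate, and each array left out. Probe positions come from the array design (mm9, per the file headers); promoters are RefSeq's on GRCm38.p6.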

Additional observations from a re-analysis of the deposited data

How the results depend on the processing

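The count of members called was the same in 12 of 27 alternatives for POL5551 against sham and in 7 of 26 for POL5551 against 2 days, and in at least 23 for each other comparison. For POL5551 against sham, 1 member (Socs3) was called, and 0 under quantile normalization with or without normexp, median scaling, the authors' table, array weights and the foreign-probe covariate; with single arrays left out it was 0 to 1. For 2 days of G-CSF it was 1, and 0 to 1 with arrays left out; for 5 days it was 1, 0 with slide as a fixed block (Socs3 4.29, adjusted p = 0.235 in limma) and 0 to 1 with arrays left out. For 5 against 2 days array weights gave 2 (Pim2 and Socs6) in place of 0, and for POL5551 against 5 days 1 (Socs3) in place of 0. For POL5551 against 2 days the count of 2 became 1 under median scaling (Socs6 left) and, with Socs3 left, under the percentile over bright probes, the percentile over spots (an alternative chosen after seeing the data), no filter on dim probes, the mean of probes and slide as a random block, 0 with the covariate, 4 with array weights, and 0 to 4 with arrays left out. The F test called 1 member, 3 with array weights and 1 to 4 with arrays left out; the 4, without sham mouse 1, were Cish, Pim2, Socs3 and Socs5. The cause was not tested. The differences called over all arrays (Socs3, and Socs6 between POL5551 and 2 days) kept their sign. Of those called only under array weights or without sham mouse 1, not as reported, Cish (-0.70) and Socs5 (-3.97) between POL5551 and 2 days and Pim2 (-0.49) between 5 and 2 days changed sign with the covariate, none called there. In both of these comparisons the covariate itself did not overlap between the groups, so it cannot be told apart from treatment. The number of all genes called for POL5551 against sham was 758 (59 higher), 220 (52 higher) under median scaling, 90 (18 higher) under quantile normalization, 62 with the authors' table, 401 with array weights, 0 with the covariate, and 60 (without POL5551 mouse 1) to 4665 (without sham mouse 3) with arrays left out. Other scalings moved the median of all genes, -0.52 there, to between -0.67 and -0.12. Slide as a fixed block could not give a value for the 2-day group or the F test. Depth is unknown for arrays; signal over background limits Socs5 and Pim2 on sham mouse 1 and the dim probes of Socs2, Socs4 and Socs6.

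Mouse numbers are shared between groups. Correlations of same-numbered deviations ran from -0.313 to 0.256, with 7 of 18 over 0.1. They were over 0.1 in all 3 pairs of sham with 2 days of G-CSF (0.248, 0.221 and 0.154) and in no other pair of groups, so the numbers may pair those groups only. There the replicate block kept Socs3 called (3.38, adjusted p = 0.0343 in limma) and moved the genes called from 11 to 6. With the replicate block the members called were 0 for POL5551 against sham (Socs3 1.84, adjusted p = 0.0602), 1 for each G-CSF comparison with sham and 2 for POL5551 against 2 days, and the genes called for POL5551 against sham numbered 181.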
